A study of Mus musculus with 10 samples.

Results

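The genes described here encode the proteins of the mitochondrial ribosome in mouse embryonic stem cells (ESCs). They were chosen by name, as the entries of the deposited expression table that begin with Mrpl or Mrps followed by a number, and by level, as those with at least 0.5 TPM in at least 2 of the 10 libraries. TPM is a read count divided by gene length and scaled to the same total in every library. The table held 77 such names among 24370 genes. All 77 passed the level rule, none lay near it (the lowest means were 16.2 TPM for Mrps25, 20.7 TPM for Mrpl41 and 21.2 TPM for Mrpl19), and all are protein-coding in the GENCODE annotation. They were tested together with every other gene that passed, 14706 in all.

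The mitochondrial ribosome translates the few messages of the mitochondrial genome, which encode core subunits of the respiratory chain. Its RNA comes from the mitochondrial genome, but its proteins are all made from nuclear genes, translated in the cytoplasm and imported. Some of them have homologues in bacterial ribosomes and others are found only in mitochondria. Embryonic stem cells rely strongly on glycolysis, and mitochondrial activity increases when they leave pluripotency.

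The question of the series was how a deubiquitinase, Usp17le, and a transcription factor active in the 2-cell embryo, Dux, act on genes of the 2-cell (2C) stage. There were 5 groups of 2 libraries. Usp17le OE cells received a Usp17le plasmid and Dux KD cells a short hairpin RNA against Dux, both under puromycin selection. In Usp17le OE-Dux KD cells the hairpin was added to Usp17le OE cells, and in Dux KD-Usp17le OE cells the plasmid was added to Dux KD cells. WT cells were cultured without transfection. The labels give the line as J1 for all groups, although the methods name another line, E3, for overexpression. Cells with a control hairpin or an empty plasmid were not analysed here, so every comparison with WT also holds transfection and selection. Whether both libraries of a group came from separate cultures is not stated in the labels, so each p measures only the spread between these libraries.

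The libraries held 32188285 to 50457228 reads in genes, of which 171100 to 263390 fell in the 77 genes. Usp17le stood at 28.7 and 35.6 TPM in Usp17le OE cells, 11.1 and 10.6 TPM in Usp17le OE-Dux KD cells, and 1.77 and 0.649 TPM in WT. The libraries labelled Dux KD-Usp17le OE held only 0.941 and 1.63 TPM of it. This was above the 0.466 and 0.424 TPM of Dux KD but within the range of WT. Against WT they thus do not show the overexpression their label names. Dux reads were few, with 80 and 75 in Usp17le OE cells, 4 and 0 in Dux KD cells, 15 and 16 in Usp17le OE-Dux KD cells, 6 and 2 in Dux KD-Usp17le OE cells, and 5 and 12 in WT. All 10 ESC markers listed were detected in every library, with a summed level of 10028 to 12552 TPM, while 10 markers of feeder fibroblasts summed to 163 to 283 TPM, most of it Vim in each library, and up to 4 of the 10 were at 0. The 7 markers of the 2C state found in the table summed to 461 and 491 TPM in Usp17le OE cells, 3.68 and 4.46 TPM in Dux KD cells, 56.2 and 61.8 TPM in Usp17le OE-Dux KD cells, 14.1 and 14.4 TPM in Dux KD-Usp17le OE cells, and 23.5 and 23.2 TPM in WT. Their part in the results on the mitochondrial ribosome was not tested.

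In these bulk samples a change per cell and a change in the mix of cells cannot be told apart. A further property of the libraries bears on every result, because the 77 genes are short. Their median length in the table was 1053 bases, against 2687 bases for the other genes tested, and 31 were under 1000 bases. Genes under 1000 bases held 42.4 and 39.5% of all TPM in Usp17le OE cells, 31.3 and 28.5% in Dux KD cells, 30.6 and 32.1% in Usp17le OE-Dux KD cells, 35.7 and 34.7% in Dux KD-Usp17le OE, and 43.2 and 43.0% in WT. Cytoplasmic ribosomal protein genes made up 20.8 to 23.2% of TPM in Dux KD and Usp17le OE-Dux KD, and 32.6 to 32.8% in WT. As deposited, the median log2 change of all genes tested was 0.26 in Usp17le OE cells, 0.38 in Dux KD cells, 0.56 in Usp17le OE-Dux KD cells and 0.29 in Dux KD-Usp17le OE cells, each against WT, 0.29 in Usp17le OE-Dux KD cells against Usp17le OE cells, and -0.10 in Dux KD-Usp17le OE cells against Dux KD cells, which is the shift that scaling removes. Changes of members are given as deposited unless said otherwise, and counts over all members also after median-of-ratios scaling (which sets the typical gene to no change) and after a length correction that subtracts the trend of other genes of the same length.

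On the GRCm38 assembly the members lay on 17 chromosomes, at most 10 of them on 1 chromosome (chromosome 11). For 33 of them the start site lay within 1000 bases of that of a protein-coding gene on the opposite strand. In 1 case the neighbour was itself a member. Mrps11 (chr7:78783119-78792989, plus strand) and Mrpl46 (chr7:78775236-78783531, minus strand) start 412 bases apart and overlap at their 5′ ends. RefSeq promoter windows, from 250 bases before to 50 bases after a start site, were found for 68 members. The windows of the 3 members that rose most in Usp17le OE cells and of the one that fell most in Dux KD cells are shown because the results turn on those genes, with capitals marking a motif match. They are Mrps11 (chr7:78782881-78783180, plus strand), Mrpl41 (chr2:24975049-24975348, minus strand), Mrps7 (chr11:115603890-115604189, plus strand) and Mrpl33 (chr5:31613701-31614000, plus strand), all in GRCm38.p6 and written 5′ to 3′.
Mrps11: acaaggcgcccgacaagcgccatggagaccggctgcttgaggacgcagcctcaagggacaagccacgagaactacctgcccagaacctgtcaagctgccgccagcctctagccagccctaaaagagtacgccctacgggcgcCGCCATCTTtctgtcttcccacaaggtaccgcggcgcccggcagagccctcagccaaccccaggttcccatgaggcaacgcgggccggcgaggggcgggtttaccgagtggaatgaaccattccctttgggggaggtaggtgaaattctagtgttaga
Mrpl41: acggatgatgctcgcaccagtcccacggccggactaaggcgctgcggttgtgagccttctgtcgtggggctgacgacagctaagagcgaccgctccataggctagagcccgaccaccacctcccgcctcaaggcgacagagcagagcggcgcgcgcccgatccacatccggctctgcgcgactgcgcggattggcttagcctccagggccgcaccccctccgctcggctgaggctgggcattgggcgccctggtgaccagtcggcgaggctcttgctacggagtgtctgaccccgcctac
Mrps7: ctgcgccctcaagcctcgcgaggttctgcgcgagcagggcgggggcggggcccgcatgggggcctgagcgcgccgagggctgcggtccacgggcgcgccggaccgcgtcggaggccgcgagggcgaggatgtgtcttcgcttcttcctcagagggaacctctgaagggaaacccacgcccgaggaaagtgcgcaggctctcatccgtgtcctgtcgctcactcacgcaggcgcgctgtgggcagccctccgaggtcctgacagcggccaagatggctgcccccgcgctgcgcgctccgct
Mrpl33: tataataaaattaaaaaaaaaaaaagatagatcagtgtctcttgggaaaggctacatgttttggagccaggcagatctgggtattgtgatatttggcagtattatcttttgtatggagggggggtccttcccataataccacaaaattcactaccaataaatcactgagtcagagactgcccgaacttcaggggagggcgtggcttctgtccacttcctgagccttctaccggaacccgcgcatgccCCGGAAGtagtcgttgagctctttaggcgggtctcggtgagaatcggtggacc
Each window was searched on both strands for AAGATGGCG (YY1), CCGGAAG (ETS factors such as GABPA), GCGCATGCG (NRF1) and CACGTG (the E-box bound by Myc). The Mrps11 window held the YY1 letters on its minus strand, from base 143 to base 151. The Mrpl33 window held the ETS letters from base 248 to base 254, across the RefSeq start site. That site lies inside the GENCODE gene, which begins upstream of the window at chr5:31596935. No match to the searched letters was found in the Mrpl41 and Mrps7 windows. Among members, 36.8% of windows held the ETS letters, 11.8% the YY1 letters, 10.3% the NRF1 letters and 7.35% the E-box. Among the other genes tested these shares were 18.4%, 3.21%, 3.85% and 11.7%, and among all 27025 promoters they were 9.93%, 1.64%, 1.95% and 8.09%. At least 1 of these motifs was present in 37 members.

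Together the 77 genes made up 10458 and 10463 TPM in Usp17le OE cells, 8876 and 8528 TPM in Dux KD cells, 8402 and 8498 TPM in Usp17le OE-Dux KD cells, 8999 and 9017 TPM in Dux KD-Usp17le OE cells, and 9278 and 9206 TPM in WT, about 1% of all TPM. As deposited, the summed level was thus highest in the Usp17le OE libraries and lower than WT in the 3 groups that carry the hairpin, but after scaling the median change of the members against WT was -0.01 in Usp17le OE cells, -0.43 in Dux KD cells, -0.63 in Usp17le OE-Dux KD cells and -0.29 in Dux KD-Usp17le OE cells. The libraries of no pair of groups overlapped in the summed level. Of the 77 members, 41 had, as deposited, their highest group mean in Usp17le OE cells, 14 in Dux KD cells, 5 in Usp17le OE-Dux KD cells, 7 in Dux KD-Usp17le OE and 10 in WT. The lowest group mean fell in WT for 25 members and in Usp17le OE-Dux KD for 24. The same was not counted over all genes tested, whose median change against WT as deposited was above 0 in every group.

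**Figure D1:**
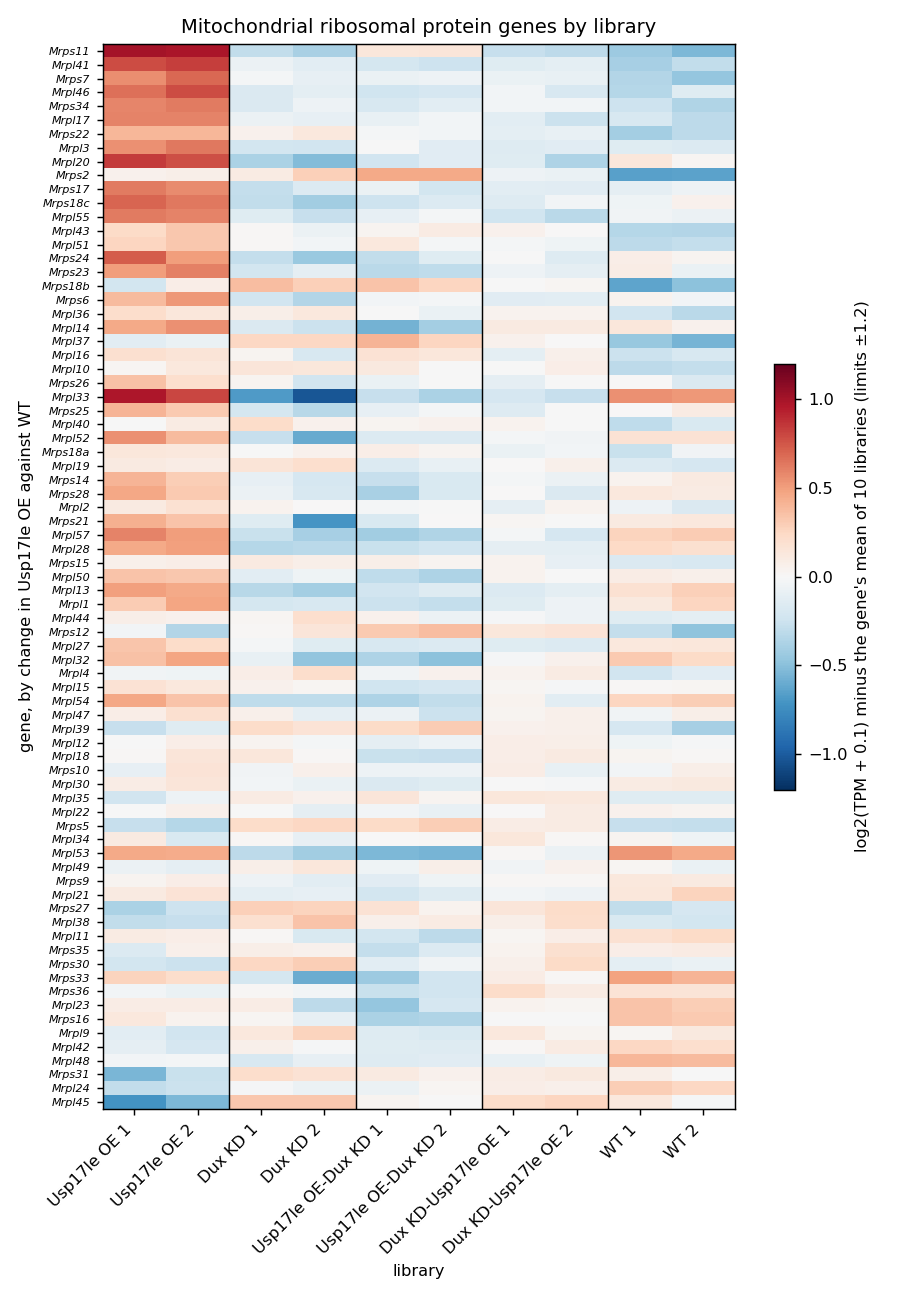
Level of each of the 77 genes (vertical axis, ordered by the change in Usp17le OE against WT) in each of the 10 libraries (horizontal axis), as log2(TPM + 0.1) minus the mean of the gene over the libraries, red above and blue below that mean. Mrps11 is at the top, with 110 and 108 TPM in Usp17le OE and 40.4 and 37.7 TPM in WT, and Mrpl45 is at the bottom.

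The 4 most abundant members had different patterns. Mrpl42, a protein found only in mitochondrial ribosomes, had the highest mean, 451 TPM. It stood at 418 and 391 TPM in Usp17le OE cells, 467 and 445 TPM in Dux KD cells, 406 and 403 TPM in Usp17le OE-Dux KD cells, 454 and 481 TPM in Dux KD-Usp17le OE cells, and 535 and 515 TPM in WT. Its WT libraries lay above all others, and the log2 change was -0.38 ± 0.05 (SE) in Usp17le OE and -0.20 ± 0.05 in Dux KD. The change in Dux KD was 0.23 after the length correction. Mrpl12, part of the stalk that recruits translation factors, varied little, with library values from 283 to 323 TPM, and was called in neither comparison as deposited. After scaling it was lower in both, by -0.19 in Usp17le OE cells and -0.36 in Dux KD cells, and after the length correction it was higher in Dux KD, by 0.19. Mrpl30 ranged from 270 to 335 TPM. Its change in Dux KD, -0.16 ± 0.04, became 0.25 after the length correction. Mrpl13 held 326 and 317 TPM in Usp17le OE cells, 184 and 174 TPM in Dux KD cells, and 263 and 282 TPM in WT. It was lower in Dux KD on all 3 scales, with a log2 change of -0.61 ± 0.05 as deposited and -0.31 after the length correction.

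In Usp17le OE cells the largest increase was that of Mrps11, a small-subunit protein with a bacterial homologue, which held 110 and 108 TPM in Usp17le OE and 40.4 and 37.7 TPM in WT. The 2 groups lay far apart, a 2.79-fold difference (log2 change 1.48 ± 0.06 SE, limma adjusted p = 9.31e-10). Mrpl41, a large-subunit protein found only in mitochondria, held 34.0 and 35.2 TPM in Usp17le OE and 14.9 and 16.0 TPM in WT (2.23-fold, log2 change 1.16 ± 0.07, adjusted p = 4.52e-08). Mrps7, which binds the RNA of the small subunit, held 171 and 188 TPM in Usp17le OE and 91.4 and 84.5 TPM in WT (2.04-fold, log2 change 1.03 ± 0.06, adjusted p = 1.81e-08). These 3 stayed the highest after the length correction, with log2 changes of 1.34, 0.92 and 0.87, and rose after scaling too. Mrpl46, named after its values were seen because it shares the Mrps11 promoter region, held 113 and 123 TPM in Usp17le OE and 56.1 and 64.4 TPM in WT, a log2 change of 0.97 ± 0.08. Reads were counted without regard to strand, so the overlap of these 2 genes could not be separated.

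The largest decrease was that of Mrpl45, which lies at the exit of the peptide tunnel and anchors the ribosome to the inner membrane. It held 94.8 and 108 TPM in Usp17le OE and 170 and 155 TPM in WT, with no overlap (0.623-fold, log2 change -0.68 ± 0.06, adjusted p = 1.31e-06). Mrpl24 followed, with 168 and 172 TPM in Usp17le OE and 253 and 243 TPM in WT (log2 change -0.55 ± 0.05). Mrps31 held 84.6 and 103 TPM in Usp17le OE and 129 and 124 TPM in WT (log2 change -0.44 ± 0.08). All 3 fell further after the length correction, to -0.92, -0.67 and -0.62. Mrpl15 was the only member called in opposite directions, with 0.13 as deposited and -0.17 after the length correction, and its deposited call was lost without either WT library or Usp17le OE replicate 1.

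**Figure D2:**
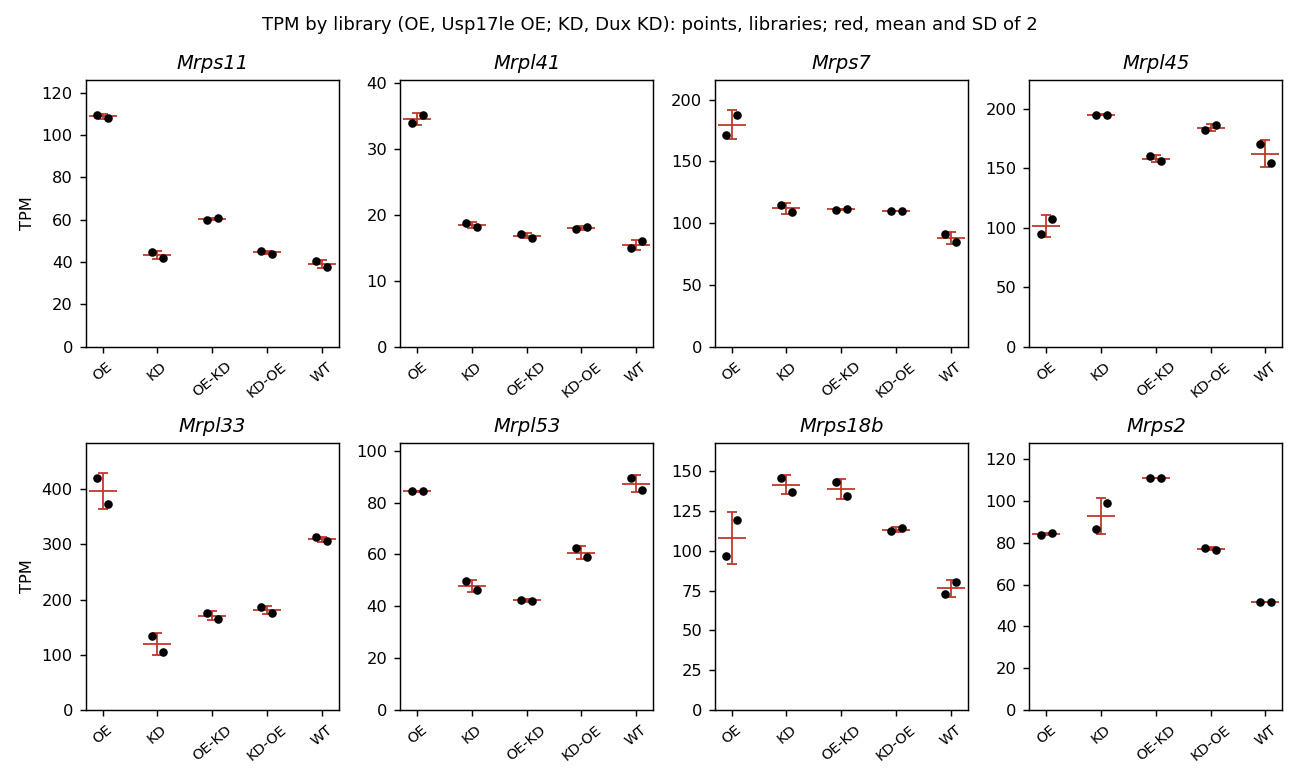
TPM (vertical axes from 0) of 8 members in the 5 groups, WT at the right of each panel, with 1 point per library and the mean and SD of 2 libraries in red. Mrps11, Mrpl41 and Mrps7 stand out in Usp17le OE, and Mrpl33 and Mrpl53 are low in all 3 groups with the Dux hairpin.

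The counts over all members depended on the scale. As deposited 43 rose (55.8%) and 8 fell (10.4%), where 45.5% of all genes tested rose and 20.9% fell, but after scaling 21 rose and 28 fell, where 32.9% of all genes rose and 32.9% fell. On the length-corrected scale 33 rose (42.9%) and 21 fell (27.3%), where 32.8% and 33.3% of all genes did. The median change of members was 0.26 as deposited, against 0.26 over all genes tested, and -0.01 after scaling. Under the length of the principal GENCODE transcript, a choice made after seeing the data, 28 rose and 22 fell. The shares of all genes under that length were not counted.

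In Dux KD cells Mrpl33, a small protein of the large subunit with a bacterial homologue, had the largest decrease, with 133 and 105 TPM in Dux KD and 313 and 307 TPM in WT. Every Dux KD value lay below every WT value (0.383-fold, log2 change -1.39 ± 0.10, adjusted p = 1.19e-06). Mrpl53 held 49.6 and 46.2 TPM in Dux KD and 89.5 and 85.0 TPM in WT (log2 change -0.86 ± 0.06). Mrps33 held 49.0 and 37.4 TPM in Dux KD and 79.2 and 74.9 TPM in WT (log2 change -0.85 ± 0.11). The decrease of these 3 was -0.67, -0.37 and -0.78 after the length correction and larger than deposited after scaling, so they fell on all 3 scales. Mrpl33 and Mrpl53 are 466 and 620 bases long in the table, and the median of 780 other genes up to 700 bases was -0.61 in the same comparison.

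The members that rose most in Dux KD kept that direction on all 3 scales. Mrps18b, a small-subunit protein, held 146 and 137 TPM in Dux KD and 72.8 and 80.4 TPM in WT (1.85-fold, log2 change 0.89 ± 0.09, adjusted p = 3.92e-06). Mrps2, which has a bacterial homologue, held 86.7 and 98.8 TPM in Dux KD and 51.5 and 51.8 TPM in WT (1.79-fold, log2 change 0.84 ± 0.06). Mrpl37 held 94.4 and 95.0 TPM in Dux KD and 58.0 and 54.3 TPM in WT (log2 change 0.75 ± 0.06). After scaling these were the 3 members still called higher, with log2 changes of 0.49, 0.44 and 0.35. Mrps12, at the decoding centre, joined them after the length correction, with 0.87 in place of 0.46 (Mrps18b was at 0.96 and Mrpl37 at 0.58), but was at 0.06 and not called after scaling.

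Several long members fell below genes of their length. Mrpl57 (2321 bases) held 34.2 and 31.3 TPM in Dux KD and 49.7 and 51.0 TPM in WT, a log2 change of -0.62 ± 0.08 that became -0.99 after the length correction. Mrps25 (6065 bases) held 13.8 and 12.7 TPM in Dux KD and 16.1 and 17.1 TPM in WT, with -0.32 as deposited and -0.97 corrected. Its deposited call was lost without WT replicate 2 (adjusted p = 0.0549) or Dux KD replicate 2 (adjusted p = 0.0542). Mrpl1 (4188 bases) held 37.9 and 38.3 TPM in Dux KD and 47.6 and 52.5 TPM in WT, with -0.39 as deposited and -0.96 corrected. The median of 11487 other genes over 1500 bases was 0.49, and 10 of the 23 members in that class rose and 7 fell as deposited, where 60.3% of those other genes rose and 5.28% fell. Among the 14 members up to 700 bases 1 rose and 12 fell, where 4.87% of other genes of that length rose and 34.0% fell. In size these members fell less, with a median of -0.40 against -0.61 for the other genes of that length.

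**Figure D3:**
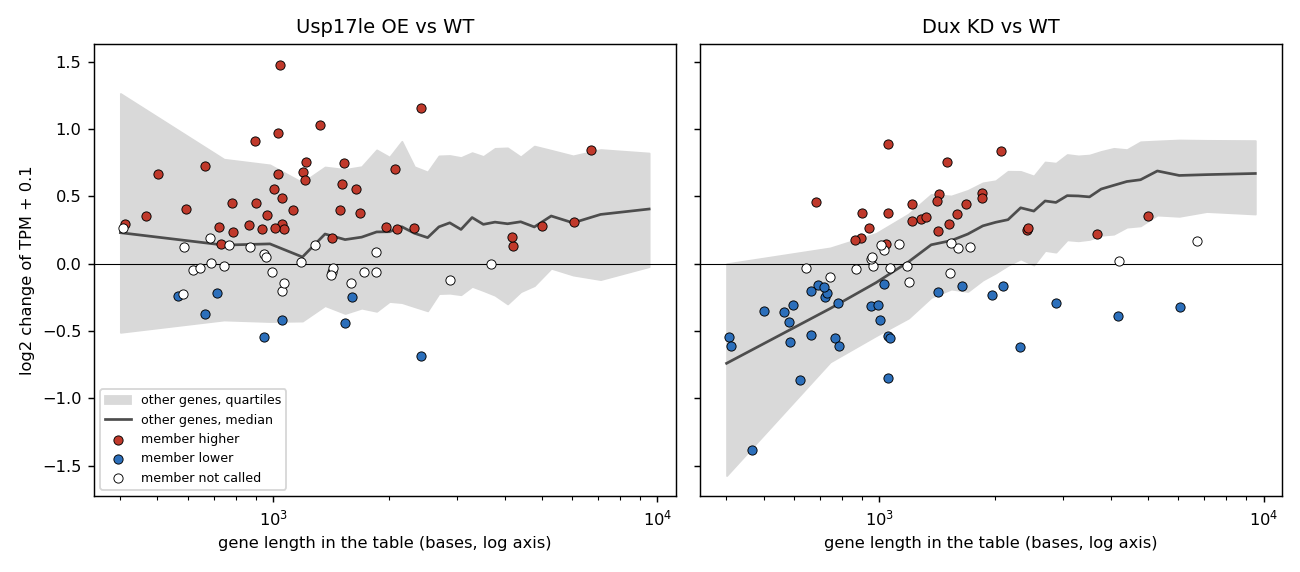
Log2 change of each member (points, red for higher, blue for lower, white for not called) against its length in bases on a log axis, with the median (line) and quartiles (band) of the other genes. In Usp17le OE against WT (left) the median of other genes lies between 0.05 and 0.41, while in Dux KD against WT (right) it runs between -0.74 for short genes and 0.69 for long ones, and the longest members lie under it.

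Read as a set, 26 members rose (33.8%) and 33 fell (42.9%) in Dux KD as deposited, where 51.4% of all genes tested rose and 10.7% fell, and after scaling 3 rose and 56 fell, where 28.7% and 25.2% did. After the length correction the balance turned round, with 33 higher (42.9%) and 23 lower (29.9%), where 26.4% and 21.8% of all genes were called. The members' median was -0.03 as deposited, -0.43 after scaling and 0.12 after the length correction, while that of all genes tested was 0.38 as deposited. A total of 10 members were called in opposite directions as deposited and after the length correction. Of these, Mrpl52 was at -0.61 as deposited and 0.19 corrected, Mrps16 at -0.36 and 0.21, and Mrpl19 at 0.36 and -0.26. How many of all genes tested turned in this way was not counted, here or in the other comparisons. The length used matters for single genes. Mrps16 is 566 bases long in the table while its principal GENCODE transcript has 2572 bases, and with that length its log2 change did not turn positive.

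In the cells that received the hairpin after Usp17le, Mrps2 rose most and Mrpl53 fell most. Mrps2 held 111 and 111 TPM in Usp17le OE-Dux KD and 51.5 and 51.8 TPM in WT, a log2 change of 1.10 ± 0.06 (adjusted p = 1.23e-08). Mrps18b held 144 and 135 TPM (0.86 ± 0.09) and Mrpl37 106 and 95.3 TPM (0.84 ± 0.06). Mrpl53 was lowest, with 42.6 and 41.9 TPM in Usp17le OE-Dux KD and 89.5 and 85.0 TPM in WT (-1.04 ± 0.06, adjusted p = 1.44e-08), followed by Mrpl33 at -0.86 ± 0.10 and Mrps33 at -0.78 ± 0.11. These 6 kept their direction after scaling and after the length correction. With length corrected, the lowest were Mrpl1 (-1.22), Mrpl57 (-1.17) and Mrpl11 (-1.08), and the highest were Mrps12 (0.998, though 0.16 and not called after scaling), Mrps18b (0.87) and Mrps2 (0.67). Mrpl52, Mrpl35 and Mrps18c were called in opposite directions on the deposited and corrected scales, as was Mrpl17. The deposited calls of Mrpl35 and Mrps18c were lost without Usp17le OE-Dux KD replicate 1 (0.18 and -0.16), and that of Mrps18c also without WT replicate 2 (-0.15). As deposited 23 members rose (29.9%) and 34 fell (44.2%), where 59.5% and 11.0% of all genes did, and after scaling 3 rose and 69 fell, where 30.0% and 30.9% did. After the length correction 22 rose (28.6%) and 37 fell (48.1%), where 28.0% and 27.5% of all genes did. Lower calls were thus above the background on all 3 scales. The comparison shares its WT libraries with those above.

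Set against Usp17le OE cells, most members were lower once the hairpin was added, on all 3 scales. This comparison shares its Usp17le OE libraries with the one against WT. Usp17le itself also differed, at 11.1 and 10.6 TPM in Usp17le OE-Dux KD and 28.7 and 35.6 TPM in Usp17le OE. The hairpin and this lower Usp17le level cannot be told apart here. Mrpl33 held 176 and 165 TPM in Usp17le OE-Dux KD and 421 and 374 TPM in Usp17le OE (0.430-fold, log2 change -1.22 ± 0.10, adjusted p = 3.03e-06). Mrpl41 held 17.1 and 16.6 TPM in Usp17le OE-Dux KD and 34.0 and 35.2 TPM in Usp17le OE (0.488-fold, log2 change -1.04 ± 0.07, adjusted p = 1.31e-07). Mrpl53 changed by -0.997 ± 0.06. Mrps11 held 60.1 and 60.6 TPM in Usp17le OE-Dux KD, below the 110 and 108 TPM of Usp17le OE and still above the 40.4 and 37.7 TPM of WT. In the other direction, Mrpl45 held 160 and 156 TPM in Usp17le OE-Dux KD and 94.8 and 108 TPM in Usp17le OE (log2 change 0.64 ± 0.06). Mrps5 (0.57 ± 0.05) and Mrps12 (0.53 ± 0.10) also rose as deposited, and after scaling Mrps12 was at 0.23 and not called. With length corrected the highest were Mrps12 (0.90), Mrps5 (0.54) and Mrps18b (0.52), and the lowest Mrpl41 (-1.32), Mrpl17 (-1.21) and Mrpl57 (-1.199). In all, 13 members rose (16.9%) and 49 fell (63.6%) as deposited, where 45.7% and 18.6% of all genes did, and after scaling 4 rose and 63 fell, where 29.6% and 30.6% did. Corrected for length, 16 rose (20.8%) and 40 fell (51.9%), where 29.6% and 28.1% of all genes did. Members were thus called lower more often than all genes on each of the 3 scales. Mrpl35 and Mrps36 were called in opposite directions as deposited and corrected. The deposited calls of both were lost without Usp17le OE-Dux KD replicate 1, and that of Mrpl35 also without Usp17le OE replicate 1.

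Whether the hairpin changed a member differently in Usp17le OE cells and in WT cells was tested as a difference of the 2 effects in the same limma model, a test added after seeing the data. The sets of libraries behind the 2 effects do not overlap. The effect in WT cells was taken against untransfected cells, and that in Usp17le OE cells came with a lower Usp17le level. The part of either in the difference was not tested. The difference equals that of Usp17le OE-Dux KD against Dux KD minus that of Usp17le OE against WT, so a member chosen for a large rise in Usp17le OE against WT tends to a negative value by its choice. The values for Mrpl41, Mrps11, Mrps7 and Mrpl46, chosen in that way, are therefore a description. The effect on Mrpl41 was -1.04 in Usp17le OE cells and 0.25 in WT cells, a difference of -1.29 ± 0.10. For the pair Mrps11 and Mrpl46 the differences were -0.999 ± 0.08 and -1.04 ± 0.11, and for Mrps7 -1.04 ± 0.08. For Mrpl33 the effects were -1.22 and -1.39, and their difference of 0.17 ± 0.14 was not called (adjusted p = 0.368), though it was called without Dux KD replicate 1 (0.34, adjusted p = 0.0159). The difference was negative and called in 37 members (48.1%) and positive in 5 (6.49%), where 28.2% and 15.8% of all genes tested were called lower and higher. After the length correction it was 34 members (44.2%) and 6 (7.79%), where 24.0% and 21.6% of all genes were called. After scaling 25 members were lower (32.5%) and 5 higher (6.49%), where 23.7% and 20.6% of all genes were called. The 2C markers moved in the same comparison, at 56.2 and 61.8 TPM in Usp17le OE-Dux KD and 461 and 491 TPM in Usp17le OE, and their part in it was not tested.

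**Figure D4:**
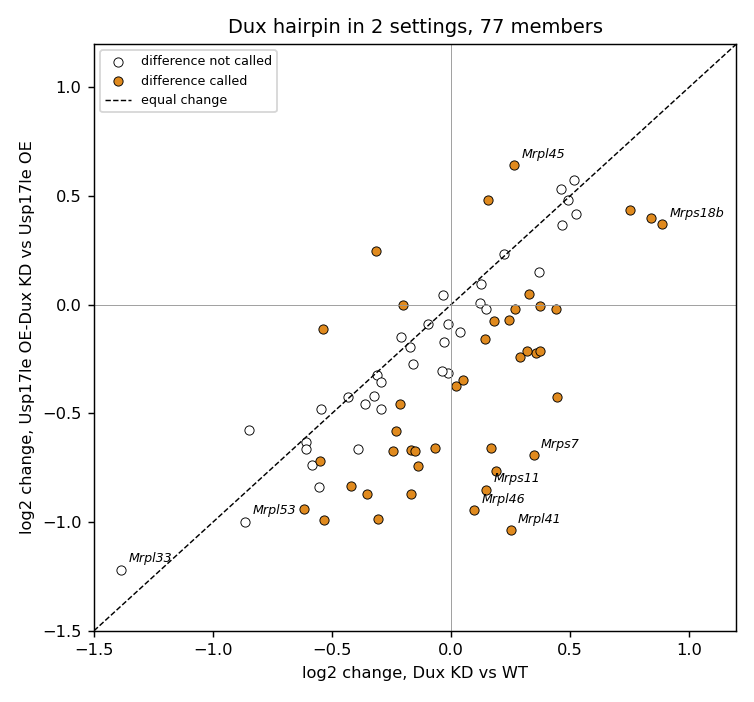
Log2 change of each of the 77 members on adding the Dux hairpin to Usp17le OE cells (vertical axis) and to WT cells (horizontal axis), with the dashed line marking equal changes and orange points the 42 members whose difference was called. Mrpl41, Mrps11, Mrpl46 and Mrps7 lie well below the line, and Mrpl33 and Mrpl53 lie near it.

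Mrps2 rose most and Mrpl33 fell most against WT where the label reads Dux KD-Usp17le OE. Mrps2 held 77.6 and 76.6 TPM in Dux KD-Usp17le OE and 51.5 and 51.8 TPM in WT (log2 change 0.58 ± 0.06, adjusted p = 7.75e-06). Mrps18b (0.57 ± 0.09) and Mrpl37 (0.53 ± 0.06) came next, and these 3 were the only members called higher after scaling. Mrpl33 held 186 and 176 TPM in Dux KD-Usp17le OE and 313 and 307 TPM in WT (-0.77 ± 0.10), ahead of Mrpl53 (-0.52 ± 0.06) and Mrpl48 (-0.46 ± 0.05). On the length-corrected scale Mrps12 (0.73), Mrps18b (0.59) and Mrpl37 (0.41) were highest and Mrpl1 (-0.73), Mrpl57 (-0.67) and Mrps25 (-0.65) lowest, while Mrps12 was not called after scaling (0.23) and the deposited call of Mrpl1 was lost without WT replicate 2 (-0.23). Mrpl19 was called higher as deposited (0.22) and lower after the length correction (-0.27), and its deposited call was lost without any 1 of the WT or Dux KD-Usp17le OE libraries. Of the members 24 rose (31.2%) and 17 fell (22.1%) as deposited, where 44.8% and 7.62% of all genes did, and after scaling 3 rose and 49 fell, where 23.9% and 20.8% did. After the length correction 25 rose (32.5%) and 22 fell (28.6%), where 21.3% and 17.7% of all genes did.

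Against Dux KD few members changed. Mrpl33 held 186 and 176 TPM in Dux KD-Usp17le OE and 133 and 105 TPM in Dux KD (log2 change 0.61 ± 0.10, adjusted p = 0.0104), and its call was lost without either Dux KD-Usp17le OE library. Mrps33 (0.46 ± 0.11) was also called higher, Mrps21 (0.44 ± 0.16, adjusted p = 0.123) was not, and Mrps18b (-0.32 ± 0.09, adjusted p = 0.0428), Mrps2 (-0.26 ± 0.06) and Mrpl37 (-0.22 ± 0.06) were called lower. The calls of Mrps33, Mrps2, Mrpl37 and Mrps18b were all lost without either Dux KD-Usp17le OE library and without Dux KD replicate 2, those of Mrpl37 and Mrps18b also without Dux KD replicate 1 or either WT library, and that of Mrps18b also without either Usp17le OE-Dux KD library. Mrps21 was called without Dux KD replicate 1 (0.72), and none of these 6 was called after the length correction. In all 9 members rose (11.7%) and 4 fell (5.19%), where 2.88% and 8.30% of all genes did. The lowest values with length corrected were those of Mrps18b (-0.36, not called), Mrps16 (-0.26) and Mrpl27 (-0.26), of which Mrps16 and Mrpl27 were called, and the highest, Mrps33 (0.41), Mrps25 (0.32) and Mrpl57 (0.32), were not called. After scaling 13 rose and 0 fell, where 3.41% and 1.95% did, with 3 lower at an unadjusted p under 0.05 in limma and 2 called lower by voom on recovered reads. With length corrected, 2 rose (2.60%) and 5 fell (6.49%), where 1.96% and 2.16% did.

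Compared with genes of matched length, the members lay between -0.16 and 0.12 in the median. Each member was set against the 100 other genes nearest to it in length, with cytoplasmic ribosomal protein genes left out, and the median difference of log2 changes over the 77 members was taken as a description with no test. A different score against length neighbours, computed for each library, had an SD of 0.0231 between replicate libraries. This SD is not the spread of the median differences given next, so it cannot be used to judge them. WT libraries scored -0.028 and 0.004, below the 0.044 and 0.068 of the Usp17le OE libraries. The Dux KD scores, 0.045 and -0.014, overlapped those of WT. Those of Usp17le OE-Dux KD, -0.111 and -0.109, lay below WT. The median difference was 0.001 in Usp17le OE against WT, with 39 members above and 38 below their neighbours. It was 0.12 in Dux KD against WT, with 42 above and 35 below, and 0.04 in Dux KD-Usp17le OE against WT. It was -0.16 in Usp17le OE-Dux KD against WT, with 31 above and 46 below, and -0.14 in Usp17le OE-Dux KD cells against Usp17le OE cells, with 28 above and 49 below. In Dux KD-Usp17le OE cells against Dux KD cells it was 0.001. Single members spread far more widely than the medians, from -0.94 to 1.34 in Usp17le OE against WT and from -1.36 to 0.85 in Usp17le OE-Dux KD cells against Usp17le OE cells. The value for Dux KD against WT was -0.003 with a pseudocount of 1 and 0.02 with neighbours matched on both length and level, so its sign depended on the setting. That of Dux KD-Usp17le OE against WT did too, at -0.002 with level matched and -0.05 with principal transcript lengths. With level matched the value of Usp17le OE-Dux KD against WT was -0.08, and with principal lengths that of Usp17le OE-Dux KD cells against Usp17le OE was -0.28, both still negative.

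**Figure D5:**
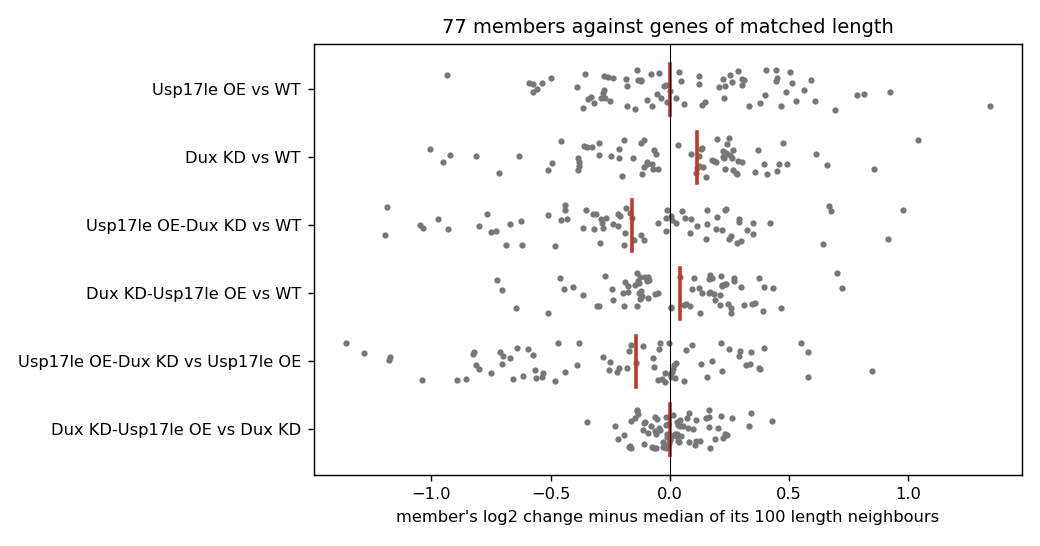
Log2 change of each of the 77 members minus the median of its 100 length neighbours (horizontal axis) in the 6 comparisons, with the median of the members in red and a small random vertical offset for visibility. The medians lie between -0.16 and 0.12, and the points of most comparisons spread by about 1 to either side. They spread less in Dux KD-Usp17le OE against WT (-0.72 to 0.72) and against Dux KD (-0.35 to 0.43).

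The members were also counted by subunit and by origin. In Usp17le OE against WT 27 of 50 large-subunit members rose and 5 fell as deposited, and 16 of 26 small-subunit members rose and 2 fell, where 45.5% of all genes rose and 20.9% fell. The medians after the length correction were 0.03 and 0.17. In Usp17le OE-Dux KD cells against Usp17le OE cells 31 of the 50 large-subunit and 17 of the 26 small-subunit members fell as deposited, where 18.6% of all genes did, with corrected medians of -0.13 and -0.18. In Dux KD against WT 22 of 46 members with a bacterial homologue fell and 11 rose, against 10 and 15 of 30 members found only in mitochondria, where 10.7% of all genes fell and 51.4% rose, but the corrected medians of both classes were 0.12. No test between these classes was made.

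Some members carry names that do not match their place. Mrps18a and Mrps30 sit in the large subunit despite their names, and Mrps36 is a component of the alpha-ketoglutarate dehydrogenase complex, not of the ribosome. Mrps18a held 96.3 and 95.6 TPM in Usp17le OE cells, 87.4 and 91.0 TPM in Dux KD cells, and 72.9 and 85.1 TPM in WT. It was called higher in both comparisons as deposited (0.28 ± 0.07 and 0.18 ± 0.07), and after scaling it was at 0.02 in Usp17le OE and -0.22 in Dux KD. Its call in Dux KD was also lost without WT replicate 1 (0.07) or either Dux KD library. Mrps18c, 1 of 3 paralogues with Mrps18a and Mrps18b, rose in Usp17le OE, with 270 and 258 TPM against 160 and 172 TPM in WT (0.67 ± 0.06). In Dux KD it held 135 and 125 TPM and its change was -0.35 ± 0.06 as deposited and 0.31 after the length correction. Mrps30 changed by -0.14 ± 0.06 in Usp17le OE, which was not called as deposited (adjusted p = 0.0509 in limma) but was called with a filter of 2 TPM, with the replicate block (adjusted p = 0.0391) and without either Dux KD-Usp17le OE library, and by 0.37 ± 0.06 in Dux KD, which became -0.03 after scaling. Mrps36 fell in Usp17le OE (-0.21 ± 0.06) and stood at -0.17 ± 0.06 in Dux KD, where the length correction gave 0.20 and the deposited call was lost without either WT library or Dux KD replicate 2.

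Genes that start next to a member did not always move with it. Of the 33 head-to-head partners, 29 were genes outside the list that were tested. In Usp17le OE against WT 15 of these rose and 5 fell, where 45.5% of all genes rose and 20.9% fell, and in 10 cases member and partner both rose while in 3 they were called in opposite directions. After scaling 11 of the partners rose and 8 fell, where 32.9% of all genes rose and 32.9% fell. How often other pairs of neighbouring genes move together was not counted. Next to Mrps18b (0.49 in Usp17le OE), Ppp1r10, a regulatory subunit of protein phosphatase 1, changed by 2.83 (2.57 after scaling). Next to Mrpl37 (0.40), Cyb5rl changed by 2.91 (2.67), and next to Mrps34 (0.91), Eme2, a subunit of a DNA endonuclease, changed by 2.76 (2.58). Next to Mrps7 (1.03), Gga3 was at 0.16 and not called (adjusted p = 0.0890; -0.10 after scaling). In Dux KD against WT 20 partners rose and 3 fell, where 51.4% and 10.7% of all genes did, with 10 pairs both higher and 9 called in opposite directions. After scaling 10 partners rose and 7 fell, where 28.7% and 25.2% of all genes did. These partners were named after their values were seen.

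Other genes of mitochondrial translation were counted against WT in the same way. The shares of all genes to set beside these counts are, in Usp17le OE, 45.5% higher and 20.9% lower as deposited and 32.9% each after scaling, and in Dux KD 51.4% higher and 10.7% lower as deposited and 28.7% and 25.2% after scaling. Single genes are given as deposited, and each one named kept its direction and its call after scaling. Of 6 ribosomal proteins of the mitochondrion with other names, 4 rose and 2 fell in Usp17le OE, with Ptcd3 at 0.72 ± 0.07 and Dap3 at -0.30 ± 0.05, and 4 rose and 1 fell in Dux KD, with Chchd1 at -0.96 ± 0.06. After scaling 1 rose and 2 fell in Usp17le OE, and 5 fell in Dux KD. Of 25 genes that assemble the mitochondrial ribosome or modify its RNA, 16 rose and 3 fell in Usp17le OE as deposited, 15 rose and 8 fell after scaling, and 15 rose and 7 fell after the length correction. Among them were Ftsj2 (1.60 ± 0.12) and Rnmtl1 (1.52 ± 0.09), methyltransferases of the large-subunit RNA, and Mtg2 (1.34 ± 0.12), an assembly GTPase. In Dux KD 21 of the 25 rose and 2 fell as deposited, and 8 rose and 5 fell after scaling. Of 14 translation factors 6 rose (42.9%) and 3 fell (21.4%) in Usp17le OE, near the shares of all genes, with Mtfmt, which formylates the initiator tRNA, at 1.08 ± 0.10, and 8 rose and 2 fell in Dux KD, with the elongation factor Tufm at 0.91 ± 0.06 and the RNA-binding protein Slirp at -1.12 ± 0.23. After scaling these counts were 1 higher and 6 lower in Usp17le OE, and 4 higher and 4 lower in Dux KD.

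Of 17 aminoacyl-tRNA synthetases of the mitochondrion 12 rose and 1 fell in Usp17le OE, and 15 rose in Dux KD as deposited. The largest change in Usp17le OE was that of Mars2 (2.17 ± 0.09). After scaling 7 rose and 3 fell in Usp17le OE and 8 rose and 2 fell in Dux KD. Lars2 had the largest change in Dux KD (2.99 ± 0.17), but part of this gene resembles ribosomal RNA and can collect its reads. Of 11 genes that copy or transcribe the mitochondrial genome, 9 rose in Usp17le OE, with Tfb2m, a transcription initiation factor, at 1.92 ± 0.08 and the helicase gene Peo1 at 1.42 ± 0.09, and 7 rose and 1 fell after scaling. In Dux KD 10 rose and 1 fell, and 6 and 1 after scaling. Of 11 tested regulators of nuclear genes for mitochondria, 8 rose and 1 fell in Usp17le OE and 10 rose in Dux KD, and after scaling 6 rose and 3 fell in Usp17le OE and 9 rose in Dux KD. Myc, a transcription factor of growth genes, had the largest change in both (4.64 ± 0.13 and 2.74 ± 0.13). Of 75 subunits of oxidative phosphorylation, 18 rose and 21 fell in Usp17le OE, and 12 rose and 51 fell in Dux KD. After scaling 3 rose and 38 fell in Usp17le OE, and 5 rose and 61 fell in Dux KD. On the length-corrected scale 15 rose (20%) and 37 fell (49.3%) in Usp17le OE, where 32.8% and 33.3% of all genes did. In Dux KD 23 rose and 23 fell (30.7% each), where 26.4% and 21.8% of all genes did. Of 85 cytoplasmic ribosomal protein genes, 6 rose and 32 fell in Usp17le OE, and 4 rose and 70 fell in Dux KD. The scaled counts were 4 higher and 59 lower in Usp17le OE, and 2 higher and 79 lower in Dux KD. Corrected for length, 6 rose and 59 fell in Usp17le OE, and 15 rose and 51 fell in Dux KD.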

How the data were processed

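RNA-seq was done on 10 libraries of mouse ESCs, 2 in each of 5 groups. Per the authors' notes, Trim Galore, HISAT2 (on mm10) and featureCounts gave read counts per gene (versions not given in the sources used here), and the deposited values are TPM, with a gene length. TPM multiplied by length came out as whole reads (100% of values, within 0.01), from which depth was taken. Genes reaching 0.5 TPM in 2 or more libraries were tested on log2(TPM + 0.1) with limma 3.58.1 (trend and robust options, R 4.3.3), with 1 mean per group over all 10 libraries and Benjamini-Hochberg adjusted p under 0.05 as a call. Fold changes are on that scale, which understates low genes. Changes were also computed after median-of-ratios scaling and after subtracting, in each library, a lowess curve on log2 length (span 0.3) fitted without mitochondrial and cytoplasmic ribosomal protein genes.

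The members and gene lists were chosen with earlier results of these data known. The text names the 4 most abundant members, the 3 highest and 3 lowest in each comparison as deposited and after the length correction, up to 3 called in opposite directions, Mrps18a, Mrps18b, Mrps18c, Mrps30 and Mrps36, the 3 nearest the level rule, and up to 3 genes of each other list. Other genes named were chosen after their values were seen, as were the difference of the hairpin effects and the principal transcript length. Other alternatives were pseudocount, filter, limma options, samples in the fit, neighbours, a replicate block, voom on recovered reads and leaving out each library. The fit was tested on simulated data.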

Additional observations from a re-analysis of the deposited data

Results flagged for a closer look

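The effect of the Dux hairpin on Mrpl41 differed between Usp17le OE cells and WT cells. The difference was -1.287 on the log2 scale (SE 0.1046, limma adjusted p = 2.271e-06). Mrpl41 was chosen as 1 of the 3 members with the lowest hairpin effect in Usp17le OE cells, which is itself part of this difference. It was also chosen for its rise in Usp17le OE against WT, which enters the difference with a minus sign. Both choices favour a negative value, so the p is too small and the value is a description. Mrpl41 held 17.1 and 16.6 TPM in Usp17le OE-Dux KD against 34.0 and 35.2 TPM in Usp17le OE, and 18.7 and 18.1 TPM in Dux KD against 14.9 and 16.0 TPM in WT. The effect on Mrpl45 differed in the other direction, by 0.3775 (SE 0.09102, limma adjusted p = 0.005141). Mrpl45 was chosen likewise, for its fall against WT and as 1 of the 3 members with the highest hairpin effect in Usp17le OE cells. Its p is therefore too small as well, and its value is a description. Mrpl45 held 160 and 156 TPM in Usp17le OE-Dux KD against 94.8 and 108 TPM in Usp17le OE, and 195 and 195 TPM in Dux KD against 170 and 155 TPM in WT. Groups of 2 libraries allow no test for a library that stands apart.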

How the results depend on the processing

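The design had 2 libraries a group, 5 residual degrees of freedom and no group with a control plasmid or hairpin. Changes near or under the standard errors given were not resolved. Some larger ones were not called either, such as that of Mrps21 in Dux KD-Usp17le OE cells against Dux KD cells. Depth (32188285 reads or more in genes) limited no member's level. Of the alternative values for named members, 1629 kept their side of the threshold with no turn of a called value. Another 94 lost a call, 24 gained one and 59 turned round, all of the last under another scaling, a length correction or voom. A turn was counted only where the value was called before or after it, so the 1629 include uncalled values that changed sign.

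The replicate numbers did not pair the samples (10 correlations between groups, from -0.0513 to 0.0482), so the replicate block is given only here. With it the members higher and lower were 44 and 9 in Usp17le OE cells against WT, 26 and 32 in Dux KD cells against WT, 22 and 33 in Usp17le OE-Dux KD cells against WT, 24 higher and 18 lower in Dux KD-Usp17le OE cells against WT, 13 and 50 in Usp17le OE-Dux KD cells against Usp17le OE cells, and 10 and 4 in Dux KD-Usp17le OE cells against Dux KD cells. The block changed 1 call of a named member, that of Mrps30 in Usp17le OE cells against WT (-0.1424, adjusted p = 0.0391 in limma). With the replicate block and the length correction together, 22 fell in Usp17le OE cells against WT and 2 rose in Dux KD-Usp17le OE cells against Dux KD cells.

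After median-of-ratios scaling the counts higher and lower were 21 and 28 in Usp17le OE cells, 3 and 56 in Dux KD cells, 3 and 69 in Usp17le OE-Dux KD cells and 3 and 49 in Dux KD-Usp17le OE cells, each against WT. Against Usp17le OE 4 rose in Usp17le OE-Dux KD cells, and against Dux KD 0 fell in Dux KD-Usp17le OE cells (3 at an unadjusted p under 0.05 in limma). With voom 16 fell in Usp17le OE cells against WT, and 8 and 50 in Dux KD cells, 7 and 53 in Usp17le OE-Dux KD cells and 10 and 42 in Dux KD-Usp17le OE cells were higher and lower against WT, while 27 rose and 2 fell in Dux KD-Usp17le OE cells against Dux KD cells. After the length correction 21 fell in Usp17le OE cells against WT and 2 rose in Dux KD-Usp17le OE cells against Dux KD cells. With principal transcript lengths 28 rose and 22 fell in Usp17le OE cells against WT, 28 fell in Dux KD-Usp17le OE cells against WT and 5 rose in it against Dux KD cells. In that last comparison 1 fell without a filter, and without the trend and robust options 0 rose and 0 fell, where 13 and 6 had an unadjusted p under 0.05 in limma. Leaving out 1 library gave 0 to 13 higher and 0 to 5 lower there, and 3 to 8 members with a positive difference of the hairpin effects. Shares of all genes tested were counted only as deposited, after scaling and after the length correction. The counts under voom and the other settings therefore have no background beside them.

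The median difference from length neighbours in Dux KD cells against WT was 0.0823 with 50 neighbours, 0.0230 with length and level matched, -0.0028 with a pseudocount of 1, 0.0018 with principal lengths, and 0.0328 to 0.122 without 1 library. In Dux KD-Usp17le OE cells against WT it was -0.0024 with level matched, 0.0154 with a pseudocount of 1, -0.0515 with principal lengths, and 0.0028 to 0.0618 without 1 library, and against Dux KD cells it was -0.0195 to 0.0401 without 1 library. In Usp17le OE cells against WT it was 0.0483 with level matched, 0.0447 with a pseudocount of 1, 0.0471 with principal lengths, and -0.0033 to 0.0621 without 1 library. In Usp17le OE-Dux KD cells against Usp17le OE cells it was -0.0867 with level matched, -0.280 with principal lengths, and -0.177 to -0.125 without 1 library. In Usp17le OE-Dux KD cells against WT it was -0.103 with 50 neighbours, -0.0758 with level matched, -0.201 with principal lengths, and -0.177 to -0.0951 without 1 library.

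Single members turned round as follows, and the cause was not tested. In Usp17le OE cells against WT scaling gave -0.19 for Mrpl12 (0.07 as deposited), -0.0237 for Mrpl13 (0.24), -0.13 for Mrpl15 (0.13) and -0.25 for Mrpl30 (0.01), and both length corrections gave -0.17 for Mrpl15. In Dux KD cells against WT scaling gave -0.36 for Mrpl12 (0.04), -0.0430 for Mrpl19 (0.36), -0.22 for Mrps18a (0.18) and -0.0298 for Mrps30 (0.37), voom gave -0.26 for Mrpl12 and -0.12 for Mrps18a, and principal lengths gave -0.14 for Mrps30. There the correction by table length and by principal length gave -0.26 and -0.26 for Mrpl19, 0.25 and 0.29 for Mrpl30 (-0.16), 0.23 and 0.24 for Mrpl42 (-0.20), 0.19 and 0.19 for Mrpl52 (-0.61), 0.31 and 0.12 for Mrps18c (-0.35), and 0.20 and 0.23 for Mrps36 (-0.17), and by table length 0.21 for Mrps16 (-0.36). In Usp17le OE-Dux KD cells against WT the corrections gave 0.20 and 0.20 for Mrpl52 (-0.34), 0.25 and 0.11 for Mrps18c (-0.20), and -0.47 and -0.48 for Mrpl35 (0.23), which scaling put at -0.33 and voom at -0.0779. In Usp17le OE-Dux KD cells against Usp17le OE they gave -0.17 and -0.19 for Mrpl35 (0.23), with scaling at -0.0730 and voom at -0.00413, and 0.15 and 0.17 for Mrps36 (-0.19). In Dux KD-Usp17le OE cells against WT they gave -0.27 and -0.27 for Mrpl19 (0.22), with scaling at -0.0877, and against Dux KD the table length gave -0.26 for Mrps16 (0.03).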
